A study of Mus musculus with 7 samples.

Results

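The 40 genes described here encode developmental transcription factors of hypothalamic and preoptic neurons: Sox proteins, homeobox proteins (among them the Hmx, Dlx, LIM, Nkx2 and TALE classes), and Fox, T-box and zinc-finger proteins. They were chosen by symbol, with earlier results of these data known, and all 40 were found among the 55384 genes of the deposited table. They were followed in ribosome-bound RNA of kisspeptin cells from the anteroventral periventricular nucleus (AVPV), a preoptic nucleus, of female C57BL/6 mice. All animals were Kiss1Cre+/Rpl22HA+/+, so that Cre driven by Kiss1 adds an HA tag to the ribosomal protein Rpl22. The 4 GDX libraries came from ovariectomized females with no E2 (estradiol), and the 3 E2 libraries from E2-treated females, which the labels describe no further. Each library was a pool of micropunches from 4 brains, and no ages were given in the labels used here. Since recombination by Cre is permanent, cells that used the Kiss1 promoter at any earlier time also keep the tag. Unbound RNA and Cre-negative pulldowns were not analysed here, so a level below means presence in pulled-down RNA, whatever its source.

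Homeobox, Sox and Fox factors bind DNA and set regional and neuronal identity in the embryo. Many stay on in adult neurons, where they maintain transmitter and peptide genes. In the ventral forebrain, Dlx factors promote the GABA neuron fate, Nkx2-1 defines the ventral hypothalamus and preoptic area, Otp and Sim1 are needed for neurons of the paraventricular nucleus, and Rax marks retinal and hypothalamic progenitors and adult tanycytes. Sox factors of the Sox1, Sox2 and Sox3 group keep progenitors undifferentiated, while Sox4 and Sox11 act as neurons mature.

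Library totals were 29207544 to 36213127 expected counts. Kiss1 was present in each library, at 44.5 CPM or more (CPM are counts scaled to library size, here with TMM factors), and Rpl22 averaged 30.7 CPM without E2 and 34.5 CPM with it. Markers of glia and vessels were also present: summed over 10 astrocyte markers, levels were 2841 and 3400 CPM in GDX replicates 1 and 4, 1293 and 1294 CPM in GDX replicates 2 and 3, and 985 to 1143 CPM in the E2 libraries. All 10 astrocyte markers were at 1 CPM or more in every library, so none of the defining ones was at 0. GDX replicates 1 and 4 therefore stood apart, and results were also computed without both.

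Of the 6 genes that later passed the E2 test, Hmx3, Hmx2, Dlx2 and Sox11 had a promoter window in the RefSeq table (GRCm38.p6), and their upstream sequences are shown so that the promoters of the members that passed can be compared. Each is printed 5′ to 3′ on the gene's strand, in lower case, leaving out bases that GENCODE annotates as exon. Capitals mark GGTCA or its reverse complement TGACC, the half-site that the estrogen receptor recognises.
Hmx3: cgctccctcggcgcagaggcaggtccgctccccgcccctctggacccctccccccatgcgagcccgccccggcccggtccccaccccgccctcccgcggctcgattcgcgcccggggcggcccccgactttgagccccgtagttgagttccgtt
Hmx2: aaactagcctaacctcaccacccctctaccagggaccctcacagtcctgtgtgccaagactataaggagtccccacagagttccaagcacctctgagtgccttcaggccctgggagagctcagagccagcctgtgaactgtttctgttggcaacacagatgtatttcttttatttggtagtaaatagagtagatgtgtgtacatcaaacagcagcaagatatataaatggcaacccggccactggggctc
Dlx2: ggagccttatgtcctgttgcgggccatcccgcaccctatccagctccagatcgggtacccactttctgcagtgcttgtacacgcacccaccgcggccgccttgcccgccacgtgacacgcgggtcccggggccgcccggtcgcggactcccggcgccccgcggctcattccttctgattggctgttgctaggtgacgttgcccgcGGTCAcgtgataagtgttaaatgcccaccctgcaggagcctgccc
Sox11: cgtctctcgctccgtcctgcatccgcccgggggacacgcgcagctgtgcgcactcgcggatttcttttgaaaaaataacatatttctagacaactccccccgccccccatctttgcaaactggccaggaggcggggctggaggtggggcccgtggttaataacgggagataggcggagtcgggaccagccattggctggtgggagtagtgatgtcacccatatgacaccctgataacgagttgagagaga

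The Hmx3 stretch is chr7:131542713-131542866 (+), the Hmx2 stretch chr7:131548507-131548756 (+), the Dlx2 stretch chr2:71546755-71547004 (-) and the Sox11 stretch chr12:27342719-27342968 (-). The table held 42 windows for 31 of the 40 genes, of which the 250 bases before the start were searched on both strands. A half-site was found in 12 of these windows (28.6%), against 35.2% of all 32851 windows. The full element GGTCANNNTGACC, which contains both half-sites, was found in 0 windows of these genes and 0.0639% of all. Among the 4 genes shown, Dlx2 had 1 half-site and the others 0 in these windows. A match or its lack describes these letters only. The dinucleotide CG occurred 12.5 times in the median window of these genes, from 1 to 34, against a median of 6 over all windows. It occurred 31 times in the Hmx3 window and 1 time in the Hmx2 window shown. A further Hmx2 window, chr7:131554043-131554292 (+), held 21. It is not printed because 232 of its bases are exon.

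Most of these developmental factors were present in the ribosome-bound RNA. Of the 40 genes, 35 (87.5%) were at 1 CPM or more in all 7 libraries, against 60% of 21886 protein-coding genes and 52.7% of 239 other genes of the same families. The members were chosen as hypothalamic and preoptic factors, with earlier results of these data known, so their higher share is not an independent result. Another 3, Six6, Sim1 and Bsx, reached 1 CPM in some libraries, and 2, Rax and Nkx2-4, in none. The plot of levels per kb shows a range of more than 3 orders of magnitude among the members.

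**Figure D1:**
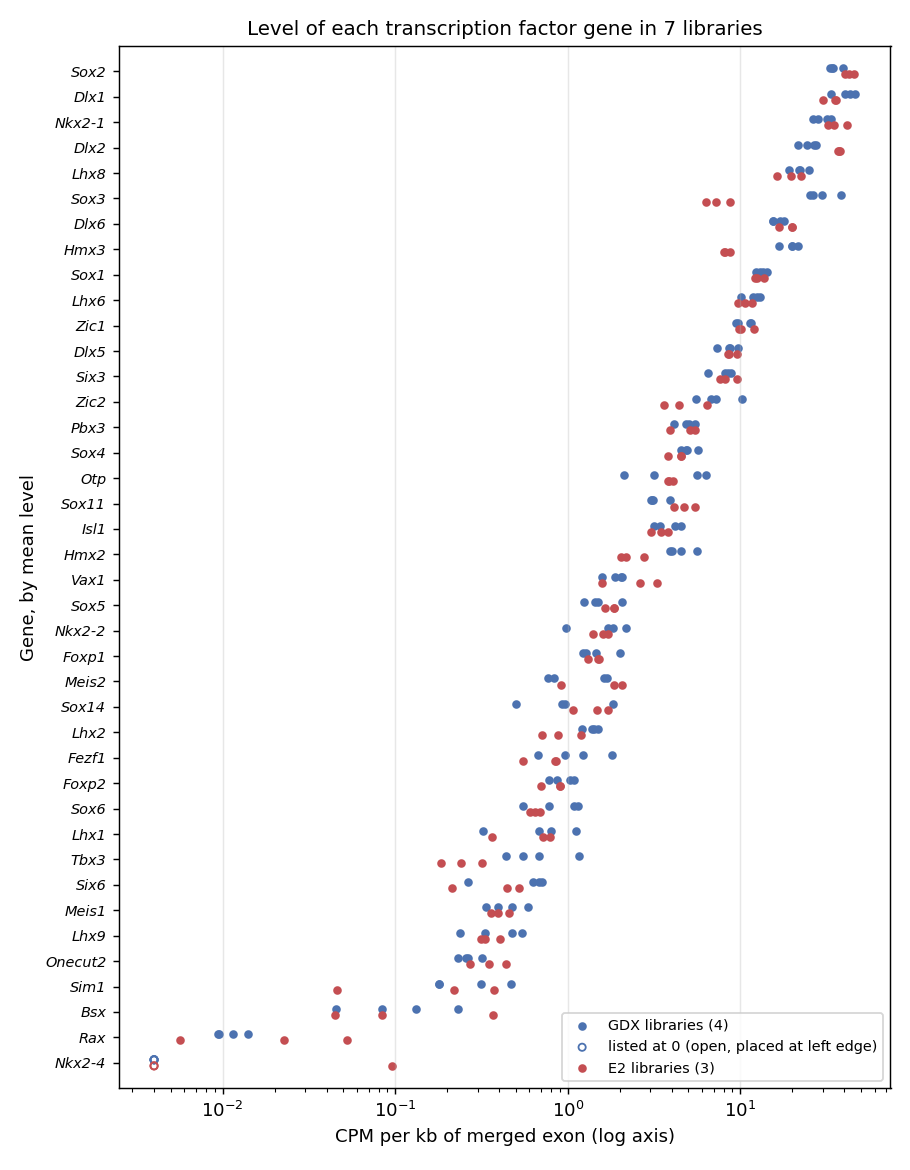
CPM per kb of merged exon (log axis) of each of the 40 genes in the 4 GDX (blue) and 3 E2 (red) libraries, sorted by the mean over libraries. Open circles at the left edge stand for libraries listed at 0. Sox2 and Dlx1 lead with 38.6 and 37.9 CPM per kb, Rax and Nkx2-4 are last, and the red points of Sox3 and Hmx3 lie to the left of all their blue points.

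Per length, averaged over all libraries, the 10 highest were Sox2 (38.6 CPM per kb), Dlx1 (37.9), Nkx2-1 (32.7), Dlx2 (30.3), Lhx8 (20.9), Sox3 (20.2), Dlx6 (17.5), Hmx3 (14.7), Sox1 (13.1) and Lhx6 (11.4). The levels of each of the 9 neighbouring pairs in this order overlapped between libraries, so their order is not fixed. With the longest transcript as length, 9 of the 10 were still among the highest. Sox2, Dlx1, Nkx2-1 and Dlx2 were in the top 10% of tested genes per kb, and 18 members were above the median tested gene. By this average over both groups, the leading genes included 3 of the 4 Dlx genes, both LIM factors of ventral forebrain interneurons (Lhx6 and Lhx8) and all of Sox1, Sox2 and Sox3. Sox3 and Hmx3 owed their place to the GDX libraries, at 29.9 and 19.6 CPM per kb. In E2 they were at 7.42 and 8.31 CPM per kb, below Zic1 (10.7), Dlx5 (8.88) and Six3 (8.48).

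At the other end, Nkx2-4, a paralog of Nkx2-1, had 0 counts in 6 libraries and 5 counts in E2 replicate 3. A count of 0 allows up to 3 counts, or 0.0818 to 0.101 CPM. Rax held 24 expected counts over all 7 libraries, 10 of them in E2 replicate 1. Bsx, a factor of arcuate peptide neurons, was 0.132 to 1.09 CPM. Neither Rax nor Nkx2-4 passed the filter on low counts, which left 38 members for testing.

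With E2, 4 of the 38 tested members fell (10.5%), where 1.33% of all 18282 tested genes fell, and 2 rose (5.26%), where 2.55% of all rose. In either direction that is 15.8% of members against 3.88%. Since the members were chosen with earlier results of these data known, these shares are not an independent test. They also depend on the method: with DESeq2 721 genes fell and 670 rose, with the same 4 and 2 members. The genes that fell were Sox3, Tbx3, Hmx3 and Hmx2, and those that rose were Dlx2 and Sox11. The median log2 fold change, E2 over GDX, was -0.141 over the tested members and 0.00403 over all tested genes. All values come from the edgeR quasi-likelihood test with Benjamini-Hochberg adjustment over all tested genes, and a gene passed at an adjusted p under 0.05. The p-values measure the spread between pools. Over all genes 65.8% of calls were rises, against 52.2% with library sizes alone, 48.2% with DESeq2 and 44.9% without the filter on low counts. Fewer tagged cells and less RNA per cell cannot be told apart in these pooled samples.

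**Figure D2:**
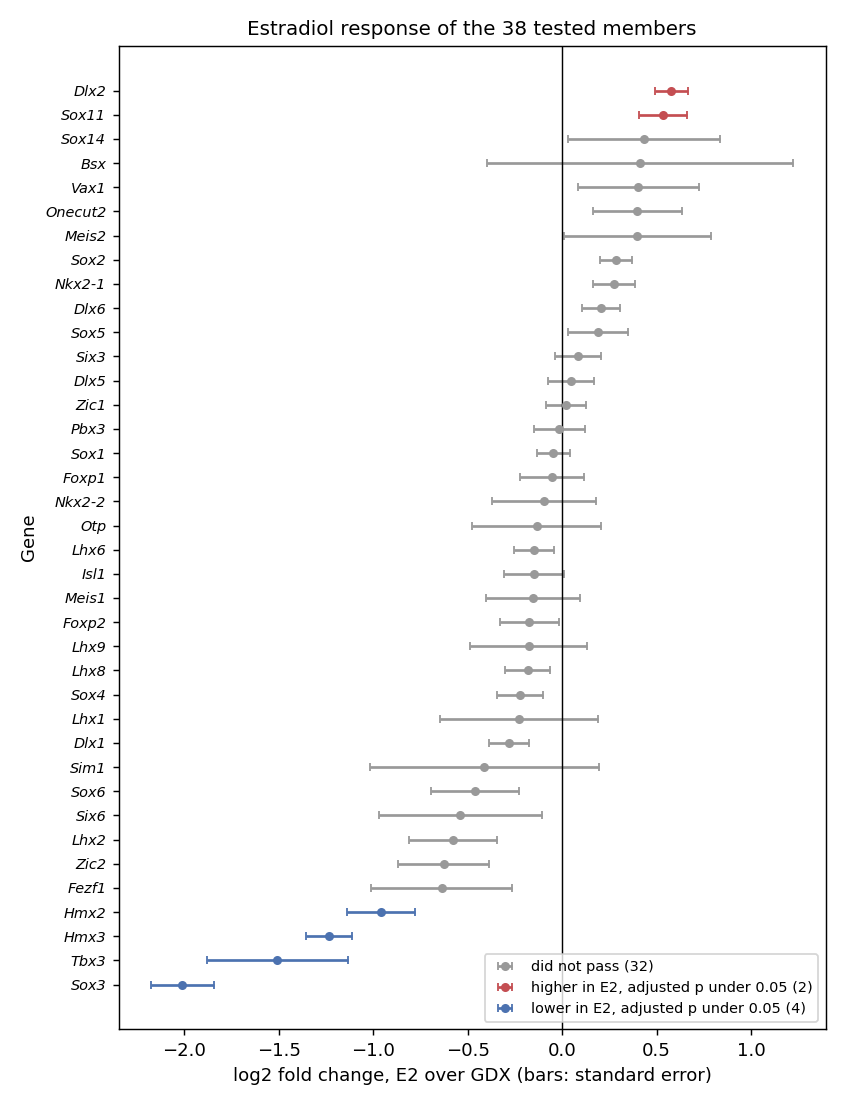
Log2 fold change, E2 over GDX, with its standard error for the 38 tested members, sorted by value. The 4 members that fell (blue) lie at the bottom, Sox3 lowest at -2.01, the 2 that rose (red) at the top, and the 32 others (grey) between them.

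Sox3, an X-linked member of the group that maintains neural progenitors and also needed for the hypothalamic-pituitary axis, changed most. It was 52.6, 61.1, 78.7 and 54.2 CPM in the GDX libraries and 13.01, 14.9 and 18.001 CPM in the E2 libraries. Every E2 library was far below every GDX library. The mean was 61.7 ± 11.9 CPM (SD, n = 4) in GDX and 15.3 ± 2.52 CPM (SD, n = 3) in E2, 4.03-fold lower (log2 fold change -2.01 ± 0.17 SE, adjusted p = 4.25e-05). Without GDX replicates 1 and 4, which hold the lowest GDX values of Sox3, the log2 fold change was -2.20 (edgeR adjusted p = 2.1e-07). The gene (ENSMUSG00000045179) lies on chromosome X, 60891366 to 60893430, and no exon of another gene overlaps it.

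Its closest relatives, Sox1 and Sox2, did not pass. Sox2, a progenitor factor that is also used by astrocytes and some adult neurons, was 69.7, 68.1, 81.5 and 71.3 CPM in GDX and 87.7, 94.4 and 83.7 CPM in E2. The groups of Sox2 did not overlap, but the difference missed the threshold (log2 fold change 0.29 ± 0.09, adjusted p = 0.106). It passed without GDX replicate 3 (adjusted p = 0.0273) and with limma-voom (0.0356). Sox1 was 59.3, 63.1, 68.6 and 65.7 CPM in GDX and 60.7, 59.1 and 66.7 CPM in E2, with overlapping groups and a log2 fold change of -0.05 ± 0.09 (adjusted p = 0.858). Within a library, the log2 ratio of Sox3 to Sox2 was -0.406 to -0.05 in GDX and -2.75 to -2.21 in E2, and that of Sox3 to Sox1 was -0.276 to 0.198 and -2.22 to -1.89. Each ratio was lower in all E2 libraries, by 2.29 and 1.95, with p = 0.0286 in a two-sided exact permutation test over 35 splits. That is the smallest p the design allows, and over the 14 ratios compared the smallest adjusted p was 0.0667, so no ratio passed.

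Hmx2 and Hmx3 are homeobox genes that lie 3847 bp apart on chromosome 7 and act together in the development of the inner ear and hypothalamus. Both fell. Hmx3 was 24.4, 29.1, 31.4 and 29.1 CPM in GDX and 12.7, 11.9 and 11.7 CPM in E2, with no overlap. Its mean was 28.5 ± 2.94 CPM (SD, n = 4) against 12.1 ± 0.519 CPM (SD, n = 3), 2.35-fold lower (log2 fold change -1.23 ± 0.12, edgeR adjusted p = 0.000101). Hmx2 was 12.6, 14.5, 17.97 and 12.96 CPM in GDX and 6.57, 6.95 and 8.89 CPM in E2, again without overlap.

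The Hmx2 mean was 14.5 ± 2.45 CPM (SD, n = 4) against 7.47 ± 1.24 CPM (SD, n = 3), 1.94-fold lower (log2 fold change -0.96 ± 0.18, edgeR adjusted p = 0.0104). The Hmx2 call was lost without E2 replicate 1 (adjusted p = 0.0809) or E2 replicate 2 (0.0659). The log2 ratio of Hmx3 to Hmx2 overlapped between groups, at 0.802 to 1.16 in GDX and 0.398 to 0.945 in E2 (exact permutation p = 0.114, adjusted p = 0.178). GDX replicates 1 and 4 were the lowest GDX libraries for both genes. Without them the log2 fold changes of Hmx3 and Hmx2 were -1.33 and -1.13 (edgeR adjusted p = 1.26e-05 and 0.00223). Hmx3 (ENSMUSG00000040148) spans 131542867 to 131544925 and Hmx2 (ENSMUSG00000050100) spans 131548773 to 131558014 on chromosome 7 (GRCm38).

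**Figure D3:**
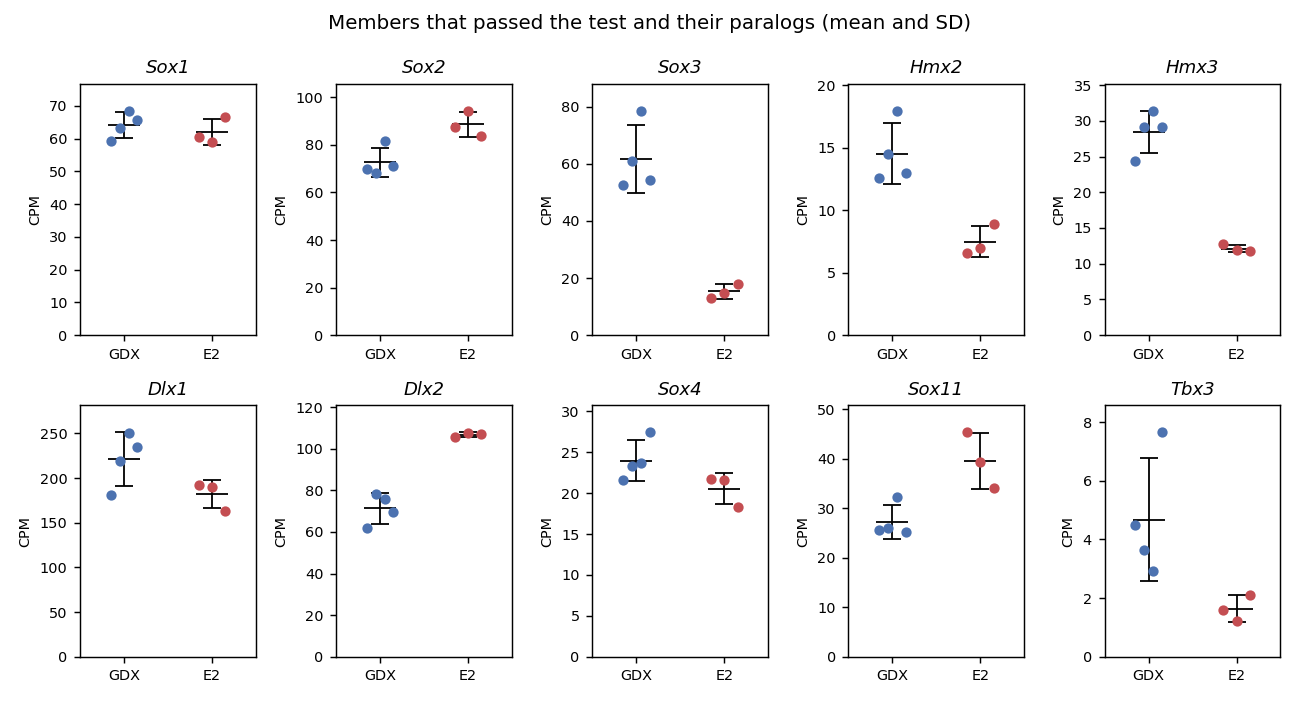
CPM in each library (points) with the mean and SD (black) for the 6 members that passed and their relatives Sox1, Sox2, Dlx1 and Sox4. The GDX and E2 points of Sox3, Hmx2, Hmx3, Dlx2, Sox11 and Tbx3 do not overlap, while those of Sox1, Dlx1 and Sox4 do.

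The Dlx genes, which promote GABA neuron identity, sit as 2 neighbouring pairs that are transcribed towards each other, Dlx1 with Dlx2 on chromosome 2 and Dlx5 with Dlx6 on chromosome 6. Dlx2 rose. It was 62.0, 78.4, 76.0 and 69.4 CPM in GDX and 105.4, 107.7 and 107.0 CPM in E2, with no overlap. Its mean was 71.4 ± 7.39 CPM (SD, n = 4) against 106.7 ± 1.15 CPM (SD, n = 3), 1.49-fold higher (log2 fold change 0.58 ± 0.09, edgeR adjusted p = 0.00285). Without GDX replicates 1 and 4 the log2 fold change of Dlx2 was 0.46 (adjusted p = 0.00398). A fit that held the non-neuronal marker score constant gave 0.43, which did not pass (adjusted p = 0.13). That score, a mean of log2 CPM over glial and vascular markers, was 4.84 to 5.49 in GDX and 4.39 to 4.81 in E2. Its groups did not overlap, so the fit cannot fully separate the score from E2, and a call can be lost for that reason alone.

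Dlx1, its neighbour, did not pass. It was 180.8, 218.8, 250.9 and 234.6 CPM in GDX and 192.6, 189.9 and 163.7 CPM in E2, with overlapping groups (log2 fold change -0.28 ± 0.11, adjusted p = 0.209). It passed without GDX replicates 1 and 4 (log2 fold change -0.37, adjusted p = 0.0332) and without the filter on low counts (-0.29, 0.0255). The log2 ratio of Dlx1 to Dlx2 was 1.48 to 1.76 in GDX and 0.613 to 0.87 in E2, lower by 0.859 with no overlap (exact permutation p = 0.0286, adjusted p = 0.0667). The antisense gene Dlx1as, at 5.82 and 6.14 CPM, shares 335 bp of exon with Dlx1, and the libraries carried no strand information, so a small share of Dlx1 counts is uncertain.

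Dlx5 and Dlx6 showed no call. Dlx6 was 42.4, 36.8, 40.1 and 36.6 CPM in GDX and 47.5, 47.6 and 39.9 CPM in E2 (log2 fold change 0.21 ± 0.10, adjusted p = 0.327). Dlx5 was 16.6 to 21.9 CPM in GDX and 19.3 to 21.6 CPM in E2 (adjusted p = 0.903). Their log2 ratio, Dlx5 to Dlx6, overlapped between the groups.

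Sox11, which drives neuronal maturation genes, rose, while Sox4, its close relative, did not pass. Sox11 was 25.6, 26.1, 32.4 and 25.1 CPM in GDX and 45.4, 39.3 and 34.1 CPM in E2, and the lowest E2 value lay just above the highest GDX value. Its mean was 27.3 ± 3.41 CPM (SD, n = 4) against 39.6 ± 5.65 CPM (SD, n = 3), 1.45-fold higher (log2 fold change 0.54 ± 0.13, edgeR adjusted p = 0.0361). Leaving out GDX replicate 1 or 2 or E2 replicate 1 or 2 ended the call, with adjusted p values of 0.116, 0.0884, 0.222 and 0.129, as did leaving out GDX replicates 1 and 4 together (0.118) and the non-neuronal covariate (0.687). Sox4 was 21.6, 23.3, 23.6 and 27.4 CPM in GDX and 21.8, 21.6 and 18.3 CPM in E2 (log2 fold change -0.22 ± 0.12, adjusted p = 0.4). The non-coding gene Gm26735, which had no counts listed, shares 2616 of the 4795 bp of Sox4 exon on the opposite strand. Without strand information the Sox4 level and its ratio to Sox11 are therefore uncertain. The log2 ratio of Sox4 to Sox11 did not overlap between groups and was 0.753 lower in E2 (exact permutation p = 0.0286, adjusted p = 0.0667).

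**Figure D4:**
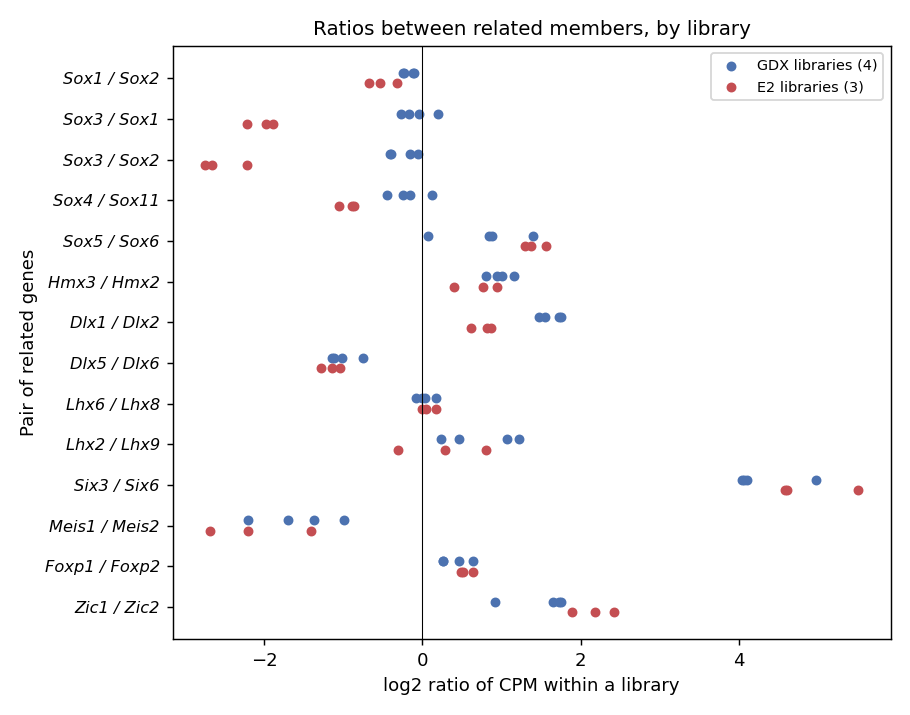
Log2 ratio of CPM between 2 related members within each GDX (blue) and E2 (red) library, for 14 pairs. The colours separate for 6 pairs, Sox1 to Sox2, Sox3 to Sox1, Sox3 to Sox2, Sox4 to Sox11, Dlx1 to Dlx2 and Zic1 to Zic2, and overlap for the other 8.

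Tbx3, a T-box factor required in arcuate neurons, fell from 4.50, 3.66, 2.91 and 7.65 CPM in GDX to 1.60, 1.22 and 2.11 CPM in E2. Its groups did not overlap, and GDX replicate 4 stood above the other GDX libraries. The log2 fold change was -1.51 ± 0.37 (adjusted p = 0.0466). The call was lost when any library other than GDX replicate 3 was left out (adjusted p = 0.0599 to 0.184), without GDX replicates 1 and 4 together (log2 fold change -0.999, adjusted p = 0.226) and with the non-neuronal covariate (-0.72, 0.71). Beside this, endothelial and mural markers summed to 495, 337, 267 and 785 CPM in GDX and 165, 268 and 251 CPM in E2. Ependyma and tanycyte markers summed to 390, 210, 229 and 680 CPM in GDX and 95.2, 149 and 170 CPM in E2. Both sums were likewise highest in GDX replicate 4, as were astrocyte markers, and only the endothelial and mural sum overlapped between groups. Oligodendrocyte and microglia markers were highest in GDX replicate 1 and E2 replicate 3. Of the 10 ependyma and tanycyte markers 1 fell and 9 did not pass. All 10 endothelial and mural markers were at 1 CPM or more in every library. The part of these cell types in the Tbx3 result was not tested. The 8 arcuate markers, a list that includes Kiss1, summed to 337, 352, 430 and 435 CPM in GDX and 794, 944 and 755 CPM in E2, higher in every E2 library. Of these markers Agrp, Cartpt, Ghrh and Kiss1 rose and Pdyn fell, and their part in the Tbx3 result was likewise not tested. Tbx3os1, at 0.984 and 1.11 CPM, shares 115 bp with Tbx3 on the opposite strand.

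Among the 6 members that passed, Sox3, Hmx3, Hmx2 and Dlx2 also passed with GDX replicates 1 and 4 left out. These replicates hold the lowest GDX values of all 4 genes. Leaving them out therefore favours a fall of Sox3, Hmx3 and Hmx2 and works against a rise of Dlx2. With the non-neuronal covariate the log2 fold changes of Sox3, Hmx3 and Hmx2 were -2.19, -1.40 and -1.12, with edgeR adjusted p values of 0.000127, 0.000439 and 0.0302.

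The LIM homeobox factors, which specify neuronal subtypes, had no call. Lhx8 was 55.6, 63.3, 56.1 and 48.5 CPM in GDX and 41.5, 49.5 and 56.6 CPM in E2. Lhx6 was 62.4, 59.9, 57.1 and 48.3 CPM in GDX and 46.9, 51.1 and 56.2 CPM in E2. Both overlapped between groups, and their log2 ratio lay between -0.0793 and 0.175 in all 7 libraries. Isl1, used by many peptide neurons, was 12.5 to 17.9 CPM in GDX and 11.96 to 15.1 CPM in E2. Lhx2 was low, at 5.33 to 6.62 CPM in GDX and 3.10 to 5.22 CPM in E2. Its groups did not overlap, but it missed the threshold (log2 fold change -0.58 ± 0.23, adjusted p = 0.232). Among all tested genes 16.5% had groups that did not overlap, and 8 of the 38 members did. Lhx9 and Lhx1, a factor of the suprachiasmatic nucleus, had mean levels of 3.76 and 2.98 CPM in GDX and 3.32 and 2.54 CPM in E2.

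Nkx2-1, which marks the ventral hypothalamus and preoptic area, was 79.7, 90.7, 95.8 and 75.1 CPM in GDX and 99.5, 118 and 92.1 CPM in E2. The groups overlapped, and it did not pass (log2 fold change 0.27 ± 0.11, adjusted p = 0.224). Nkx2-2 was 2.82 to 6.24 CPM over all libraries. Six3, a forebrain patterning factor, was 35.4 to 48.1 CPM in GDX and 41.7 to 52.4 CPM in E2, and its relative Six6, a suprachiasmatic factor, 1.06 to 2.86 and 0.857 to 2.08 CPM. Six3os1, at 21.8 and 19.0 CPM, shares 106 bp with Six3 on the opposite strand. The protein-coding gene 4930447C04Rik (6.67 and 6.79 CPM) shares 192 bp with Six6 on the opposite strand and exceeded it, so the Six6 level is uncertain. Vax1, another forebrain homeobox gene, had means of 2.11 CPM in GDX and 2.80 CPM in E2.

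Zic1 and Zic2, zinc-finger factors of the dorsal and medial forebrain, differed in spread. Zic1 was 64.4, 66.0, 53.9 and 55.4 CPM in GDX and 57.6, 56.1 and 68.8 CPM in E2. Zic2 was 19.5, 20.9, 15.9 and 29.3 CPM in GDX and 12.7, 10.4 and 18.5 CPM in E2, with overlapping groups and GDX replicate 4 highest (log2 fold change -0.63 ± 0.24, adjusted p = 0.219). Without the filter on low counts Zic2 passed (adjusted p = 0.00163), whereas with the non-neuronal covariate its log2 fold change was -0.20 (adjusted p = 0.911). Sox6, present in interneurons and oligodendrocyte precursors, was 17.0 and 16.2 CPM in GDX replicates 1 and 4 and 8.16 to 11.5 CPM in the other 5 libraries. Astrocyte markers were highest in the same pair of libraries, as given above. Markers of oligodendrocytes and their precursors summed to 5594 CPM in GDX replicate 1 but 2991 CPM in GDX replicate 4, within 2518 to 2991 CPM with the other libraries. The part of either cell type in the Sox6 level was not tested.

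Otp and Sim1, factors of paraventricular neurons, differed between pools. Otp was 9.08, 18.1, 16.3 and 6.09 CPM in GDX and 11.1, 10.9 and 11.8 CPM in E2, so the GDX libraries spread on both sides of the E2 libraries, which lay close together. Otp did not pass (log2 fold change -0.13 ± 0.34, edgeR adjusted p = 0.901). It fell without GDX replicates 1 and 4 (log2 fold change -0.61, adjusted p = 0.0364), but these hold its lowest GDX values, so leaving them out favours a fall. Without GDX replicate 2 or 3, where Otp was highest, the log2 fold change was 0.106 or 0.025 and did not pass. Sim1 was 1.55, 4.02, 2.69 and 1.54 CPM in GDX and 1.88, 0.396 and 3.24 CPM in E2. The summed level of the paraventricular and supraoptic peptide genes Crh, Trh, Oxt and Avp, chosen after the values were seen, was 158, 240, 255 and 106 CPM in GDX and 148, 123 and 159 CPM in E2. Like Otp it was highest in GDX replicates 2 and 3 and lowest in GDX replicate 4; the part of these neurons in the Otp level was not tested. Fezf1, a ventromedial factor, was 1.62 to 4.33 CPM in GDX and 1.32 to 2.05 CPM in E2.

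**Figure D5:**
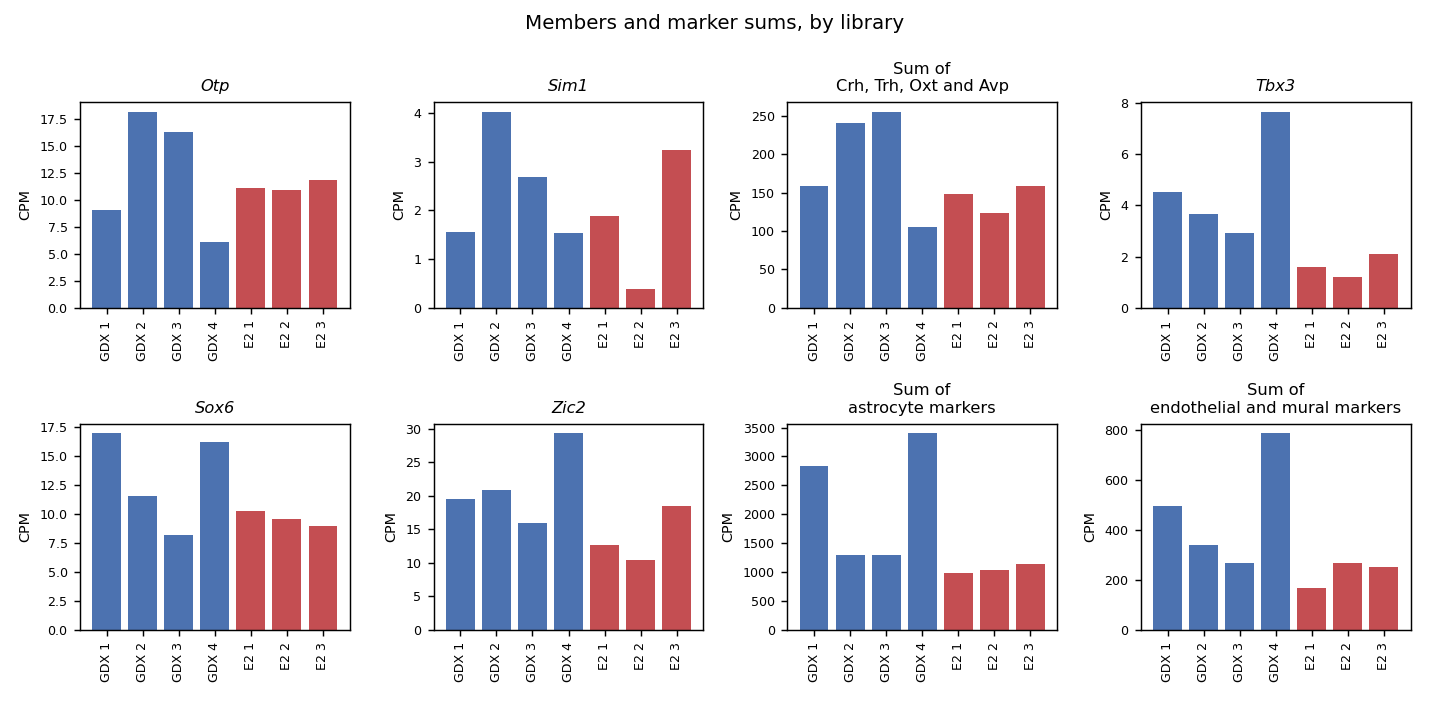
CPM in each of the 7 libraries (bars from 0; GDX blue, E2 red) for Otp, Sim1, Tbx3, Sox6 and Zic2 and for 3 marker sums. Otp and the peptide sum are highest in GDX replicates 2 and 3, and Tbx3, Zic2 and both the astrocyte and the endothelial and mural sums are highest in GDX replicate 4.

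Across the tested members, 11 had a coefficient of variation over 0.3 among the GDX libraries (Otp, Meis2, Sox14, Fezf1, Sox6, Lhx1, Tbx3, Six6, Lhx9, Sim1 and Bsx), as did 26.4% of all tested genes. The median coefficient was 0.159 for the members and 0.15 for all tested genes. Meis2, a cofactor of other homeobox proteins, was 20.3, 19.5, 9.26 and 9.97 CPM in GDX and 11.1, 24.8 and 22.4 CPM in E2, so that values near 10 and near 20 CPM occurred in both groups. Meis1 had means of 4.72 CPM in GDX and 4.25 CPM in E2. Those of Pbx3, another cofactor of this class, were 29.8 and 29.5 CPM. The Fox factors Foxp1 and Foxp2 had means of 20.5 and 15.3 CPM in GDX and 19.8 and 13.6 CPM in E2. The long genes Sox5 and Onecut2 had 22.5 and 4.34 CPM in GDX and 25.6 and 5.73 CPM in E2, and Sox14 had 2.17 and 2.94 CPM. None of these 8 passed, and their groups overlapped.

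Other genes of the same families were listed by family and not by how they moved, but with earlier results of these data known. Their shares are thus no independent comparison either. Of 165 tested, 5 rose, 5 fell and 155 did not pass, which is 6.06% against the background of 3.88%, and their median log2 fold change was -0.162. Among 59 other homeobox genes Cux1 rose and Pou3f4 fell. Pou3f4, a POU factor of developing ventral forebrain, was 5.28 to 7.39 CPM in GDX and 1.32 to 2.51 CPM in E2, 3.28-fold lower (log2 fold change -1.71 ± 0.28, adjusted p = 0.00373). Of 28 T-box, bHLH-PAS and zinc-finger genes only Bcl11a passed, a zinc-finger gene of neuronal differentiation that was 36.1 to 44.6 CPM in GDX and 62.6 to 65.4 CPM in E2 (log2 fold change 0.72 ± 0.09, adjusted p = 0.000796).

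Of 9 other Sox genes Sox18, known for vessel development, rose from 7.91 to 13.9 CPM across GDX to 21.7 to 22.1 CPM in E2 (log2 fold change 0.96 ± 0.17, adjusted p = 0.00775), while the endothelial and mural markers had a median log2 fold change of -1.08. None of these 10 markers passed with edgeR, where 6 were lower at an unadjusted p under 0.05, while DESeq2 called 1 lower and limma-voom 2. Their part in the Sox18 level was not tested. Of 25 other Fox genes Foxk1 rose and Foxi1, at 1.54 to 2.52 CPM in GDX and 0.33 to 0.493 CPM in E2, fell (log2 fold change -2.32 ± 0.42, adjusted p = 0.00812). Lmo3 and Lmo4, LIM-only proteins that compete for the LIM cofactor Ldb1, fell among 10 tested LIM genes and cofactors, with log2 fold changes of -0.50 and -0.52. Of 14 other TALE genes and partners Pknox2 rose and Pbxip1, which binds Pbx proteins, fell. None of 20 proneural bHLH and Id genes passed with edgeR, where 6 were lower in E2 and 0 higher at an unadjusted p under 0.05; DESeq2 called 5 of them lower and limma-voom 4. With the non-neuronal covariate edgeR called 1 of them higher and 0 lower, and 1 was lower at an unadjusted p under 0.05. Pou3f4, Bcl11a, Sox18 and Foxi1 passed whichever single library was left out, whereas Cux1, Foxk1, Lmo3, Lmo4, Pknox2 and Pbxip1 each lost the call in 4 to 6 of the 7 cases.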

How the data were processed

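RNA on HA-tagged ribosomes was sequenced from 4 GDX and 3 E2 pools of 4 brains each. The deposited table held expected counts per gene, of which 33.1% of those above 0 had a fractional part. Trimmomatic 0.38, STAR 2.6.0a, RSEM 1.3.0 and mm10 were named in the submitters' processing notes without their roles or order (annotation: not given in the sources used here). Symbols, exons and coordinates came from GENCODE vM21 on GRCm38, which held 55117 of 55384 listed genes.

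Counts were rounded and fitted in R 4.3.3 with edgeR 4.0.16 (TMM factors, filterByExpr with a minimum count of 10, robust quasi-likelihood test, Benjamini-Hochberg adjustment over 18282 genes). Standard errors are the log2 fold change divided by the square root of the F statistic. Per-length levels divide CPM by merged exon length. A count floor of 3 corresponded to 0.0818 to 0.101 CPM and covers counting error only. The genes and lists were chosen with earlier results of these data known. Named were all genes that passed, their paralogs, the 10 highest per kb and up to 3 changed genes per related family. Checked on simulated counts for 18282 genes, the fit found 75% of the genes changed 2-fold and 90% of those changed 4-fold. Of its calls there 11.3% were false, above the share of 0.05 that the threshold sets. DESeq2 1.42.0 and limma 3.58.1 served as alternatives.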

Additional observations from a re-analysis of the deposited data

Results flagged for a closer look

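Among the 4 GDX libraries, 1 value stood far from the rest of its group for 3 of the 65 quantities examined. Chance gives about 1 in 20, so 3 is no more than chance would give. The level of Sox11 was highest in GDX replicate 3, at 32.4 CPM, and 25.1 to 26.1 CPM in the other GDX libraries. The log2 ratio of Six3 to Six6 was highest in GDX replicate 4, at 4.98. The log2 ratio of Zic1 to Zic2 was lowest in GDX replicate 4, at 0.916.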

How the results depend on the processing

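Sox3 and Hmx3 passed in all 18 alternatives that gave them a value, Dlx2 in 17 and Hmx2 in 16, against 10 of 18 for Sox11 and 7 of 17 for Tbx3. None of these 6 changed sign, but 15 of the 38 tested members did in 1 or more alternatives, among them Zic1, Dlx5, Six3, Otp and Foxp1, and none of the 15 passed in those. The members that rose went from 2 to 1 with library sizes without scaling factors, at an adjusted p under 0.01 and without GDX replicates 1 and 4 together, and to 0 with the non-neuronal covariate in edgeR, where 1 was higher in E2 at an unadjusted p under 0.05. DESeq2 and limma-voom, run without that covariate, called 2 and 3. Those that fell went from 4 to 2 at an adjusted p under 0.01, and to 5 without GDX replicates 1 and 4, where Dlx1 and Otp were gained and Tbx3 lost. With 1 library left out, 1 to 3 members rose and 2 to 4 fell. The same numbers were not used as pairs in the main fit. Deviations of same-numbered libraries correlated at -0.02, -0.038 and -0.055, which cannot show whether the samples were collected in pairs. With the replicate block 1 member rose and 3 fell, and 2 related genes rose.

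Over all genes, 467 rose and 243 fell. Without a filter 722 rose and 887 fell, DESeq2 gave 670 rises and 721 falls, limma-voom 398 falls, the covariate 231 rises and 92 falls, and an adjusted p under 0.01 gave 275 and 85. With 1 library left out, 268 to 591 rose and 96 to 428 fell. Related genes that rose went from 5 to 3 with DESeq2 size factors, upper-quartile factors, no robust option or the covariate, and to 2 with library sizes alone or at an adjusted p under 0.01. Those that fell went from 5 to 8 with library sizes alone, 24 without a filter, 22 with DESeq2, 12 with limma-voom, 1 with the covariate and 2 at an adjusted p under 0.01. With 1 library left out, 2 to 5 related genes rose and 2 to 12 fell. The causes were not tested.

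At 0.5 or 2 CPM in place of 1 CPM, 36 or 30 members were present in all libraries. Differences between groups near 0 turned sign for the log2 ratio of Lhx6 to Lhx8 (-0.00962 without E2 replicate 1, up to 0.0896), for the score of microglial markers (0.0202 without GDX replicate 1, 0.0128 without GDX replicate 2 and 0.0434 without E2 replicate 1, down to -0.113) and for that of ventromedial markers (0.0176 at a prior count of 5, 0.0986 and 0.113 without GDX replicates 2 and 3, and 0.0173 without E2 replicate 2, down to -0.222). No marker score or ratio passed after adjustment. The smallest p of the exact permutation test over 35 splits is 0.0286, so none could pass by itself, however large its change. Tbx3 could not be tested under a mean of at least 5 CPM.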
